A study of Mus musculus with 24 samples.

Results

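The genes described are 8 acute-phase genes whose transcripts were looked for in white fat: Saa1, Saa2, Saa3, Hp, Lcn2, Orm1, Serpina3n and Cp. They were taken by gene symbol from the deposited tables, in which all 8 were found among 56895 entries. RNA of the retroperitoneal adipose tissue of 24 offspring, labelled C57BL/6J (C57BL/6JRJ in the study's methods), had been sequenced, with 3 mice in each of 8 groups. The CTRL mothers had eaten 1.0 IU of vitamin D3 in each g of diet and the VDD mothers 0.0 IU for 8 weeks before mating and, per the methods, through gestation, and all of them ate the control diet after the birth. Male and female offspring ate a low-fat (LF) or a high-fat (HF) diet, the latter with 45% of its energy from fat, for 8 weeks from 6 weeks of age, and were therefore about 14 weeks old, and fasted overnight, when the tissue was taken. The deficient diet was thus given to the mother alone, each library is the whole fat pad of 1 mouse, and the labels do not name litters, so p-values measure the spread between these mice.

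Acute-phase proteins are secreted into the blood when inflammation is sensed. The liver makes most of them in response to interleukin 6, interleukin 1 and glucocorticoids, acting through the factors STAT3, C/EBP and NF-kB, and fat cells and the immune cells of fat are known as a further source. Haptoglobin (Hp) binds free hemoglobin, ceruloplasmin (Cp) carries copper and oxidises iron, orosomucoid (Orm1) is a carrier of small molecules, and Serpina3n is an inhibitor of serine proteases. The serum amyloid A proteins (Saa1, Saa2, Saa3) bind lipoproteins and attract leukocytes, and lipocalin 2 (Lcn2) withholds iron from bacteria by binding their siderophores.

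The tables gave log2 values of normalized reads, from which reads were recovered and scaled across the 24 libraries, so that all levels below are scaled reads. The gene reads of a library summed to 13346779 at the lowest and 18484346 at the highest. Adipoq, the adipocyte hormone adiponectin, had 44740 to 109716 scaled reads and marked every library as fat. Other tissue was present in some libraries. In the VDD LF female mouse 2303, the kidney genes Umod and Slc34a1 reached 1937 and 2907 scaled reads. The muscle actin gene Acta1 reached 181274 in the VDD LF male mouse 2310, and the steroid-synthesis gene Cyp11a1 reached 12775 in the CTRL HF female mouse 2292. The word renal stood in the column names of 6 libraries, 4 of them male. What the word marks is not stated, and mouse 2303, with the high kidney genes, did not carry it.

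Of the 8 genes, 6 had enough reads to be tested, which meant 10 or more normalized reads in 3 or more libraries. Saa1 and Saa2, the forms of serum amyloid A that the liver releases into the blood, did not. Saa1 had 0 reads in 11 libraries and at most 15 reads, and Saa2 had 0 reads in 17 libraries and at most 9 reads. Saa4, the constitutive member of the family, had 0 reads in all 24 libraries. Of 50-base windows of the Saa1 transcript, 13.2% were also found in Saa2. Only uniquely placed reads were kept, so read pairs that matched both genes equally were not counted. How many were lost was not measured. The locally made form, Saa3, was found in every library, and 0 of its windows occurred in Saa1, Saa2 or Saa4.

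Levels of different genes were compared per kb of annotated exon. On that scale Hp and Orm1 were the most abundant, with medians over 24 libraries of 6055 and 5943 scaled reads per kb, and Hp was above Orm1 in 11 of the 24, so their order was not fixed. Serpina3n followed with 1359 and Cp with 350.4. Serpina3n was above Cp in all 24 libraries and below Orm1 in 23 of them. Saa3 had a median of 82.0 and Lcn2 of 21.1, and Saa3 was the higher in 17 of 24. Saa3 was also the most uneven, since its highest library had 454 times the scaled reads of its lowest, whereas the same ratio was 20.4 for Hp, 19.6 for Lcn2, 9.77 for Serpina3n, 5.66 for Cp and 5.34 for Orm1.

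The 8 genes lie at 6 places in the genome (mm10, GENCODE annotation). The Saa genes share 1 stretch of chromosome 7, with Saa3 at 7:46711998-46715700 on the minus strand, Saa1 at 7:46740497-46742980 on the minus strand and Saa2 at 7:46751790-46754313 on the plus strand. Hp lies at 8:109575128-109579172 (minus), Lcn2 at 2:32384633-32388252 (minus), Orm1 at 4:63344560-63348163 (plus) and Serpina3n at 12:104406729-104414329 (plus). Cp lies at 3:19957054-20009145 (plus), and its span overlaps that of Hps3 on the other strand. The library kit marks strand, but the methods do not say whether the counting used it.

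The 250 bases before the RefSeq start (GRCm38.p6) were at hand for 6 of the 8 genes, all but Hp and Orm1, and 3 windows are shown because they belong to genes whose levels moved with the diet or varied most. Of each window the part before any annotated exon of its gene is printed, which is the whole window for Serpina3n and Cp and 226 bases for Saa3. Capitals mark matches to TTNNGNAA on either strand, the general form of a site for the C/EBP factors. The windows lie at 12:104406458-104406707 (plus) for Serpina3n, 3:19956804-19957053 (plus) for Cp and 7:46715701-46715926 (minus) for Saa3.
Serpina3n: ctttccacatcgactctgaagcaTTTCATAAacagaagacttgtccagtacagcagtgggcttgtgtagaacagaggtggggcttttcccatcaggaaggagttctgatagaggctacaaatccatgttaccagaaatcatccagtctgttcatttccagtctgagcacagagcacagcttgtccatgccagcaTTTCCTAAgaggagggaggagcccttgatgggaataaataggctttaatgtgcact
Cp: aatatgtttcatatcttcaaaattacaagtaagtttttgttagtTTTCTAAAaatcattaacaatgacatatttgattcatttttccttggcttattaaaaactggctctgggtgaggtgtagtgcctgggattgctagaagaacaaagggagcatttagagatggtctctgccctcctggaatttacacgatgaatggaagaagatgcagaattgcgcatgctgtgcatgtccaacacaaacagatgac
Saa3: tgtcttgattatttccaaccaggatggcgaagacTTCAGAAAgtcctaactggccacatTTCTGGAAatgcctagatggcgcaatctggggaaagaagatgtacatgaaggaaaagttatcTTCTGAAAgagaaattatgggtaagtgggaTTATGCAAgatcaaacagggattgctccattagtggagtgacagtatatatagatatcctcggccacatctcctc
The Saa3 window held 4 matches, Serpina3n held 2 and Cp, at the first of its annotated starts, held 1. In the windows not shown Saa1 had 2, Saa2 had 1 and Lcn2 had 1. The Lcn2 window lies inside the annotated span of that gene, with 0 bases before its annotated exons. Such a match occurred in 36.8% of all 32851 mouse windows of 250 bases, so it is common. The NF-kB motif searched, found in 0.98% of all windows, had no match in the windows of these 6 genes, and neither had TTCNNNGAA for STAT factors (7.02%) or the paired elements of the glucocorticoid and vitamin D receptors (0.00913% and 0.00609%). The windows of Saa1 and Saa2 were 94.8% identical, against 52.2% for Saa1 and Saa3. A match is a run of letters and was not tested as a binding site.

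Hp, Serpina3n and Cp moved with the HF diet in males. When the HF response was averaged over the offspring of CTRL and VDD mothers, Hp and Serpina3n rose and Cp fell, while Saa3, Orm1 and Lcn2 did not pass the test. A gene was called at a Benjamini-Hochberg adjusted p (limma) under 0.01 over all genes with a fold change above 1.5 or below 0.66. In that fit 6.91% of the 16925 genes tested were called, with 4.13% higher and 2.78% lower under HF, and 3 of the 6 acute-phase genes tested were among them. Of the 6 genes, 3 had a positive and 3 a negative log2 fold change, so they did not move together. The median was 0.67 over the 6 genes and -0.0029 over all genes.

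Hp had 4597, 4316 and 6756 scaled reads in CTRL LF males and 25240, 18832 and 24158 in CTRL HF males. In the offspring of VDD mothers it had 6048, 7559 and 9488 under LF and 28082, 43933 and 79194 under HF. Every HF male was above every LF male, and the highest of all 24 mice was the VDD HF male 2308. The averaged log2 fold change was 2.37 (SE 0.24), a 5.18-fold increase, with adjusted p = 0.000237.

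Serpina3n had 2259, 2371 and 2894 scaled reads in CTRL LF males and 6151, 5481 and 4308 in CTRL HF males. It had 1790, 2718 and 2249 in VDD LF males and 4949, 5426 and 11531 in VDD HF males. The LF and HF males did not overlap, and mouse 2308 was again the highest. The averaged log2 fold change was 1.34 (SE 0.21), a 2.54-fold increase, with adjusted p = 0.00199.

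Cp went the other way. CTRL LF males had 6260, 6261 and 4459 scaled reads of Cp and CTRL HF males 1810, 1843 and 2095. VDD LF males had 4074, 4179 and 2996 and VDD HF males 1106, 1159 and 1701. All 6 HF males lay below all 6 LF males. Cp fell by 1.53 on the log2 scale (SE 0.15), to 0.346 of the LF level, with adjusted p = 0.000181. Separation of the 6 LF from the 6 HF males was seen in 9.13% of all genes.

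**Figure D1:**
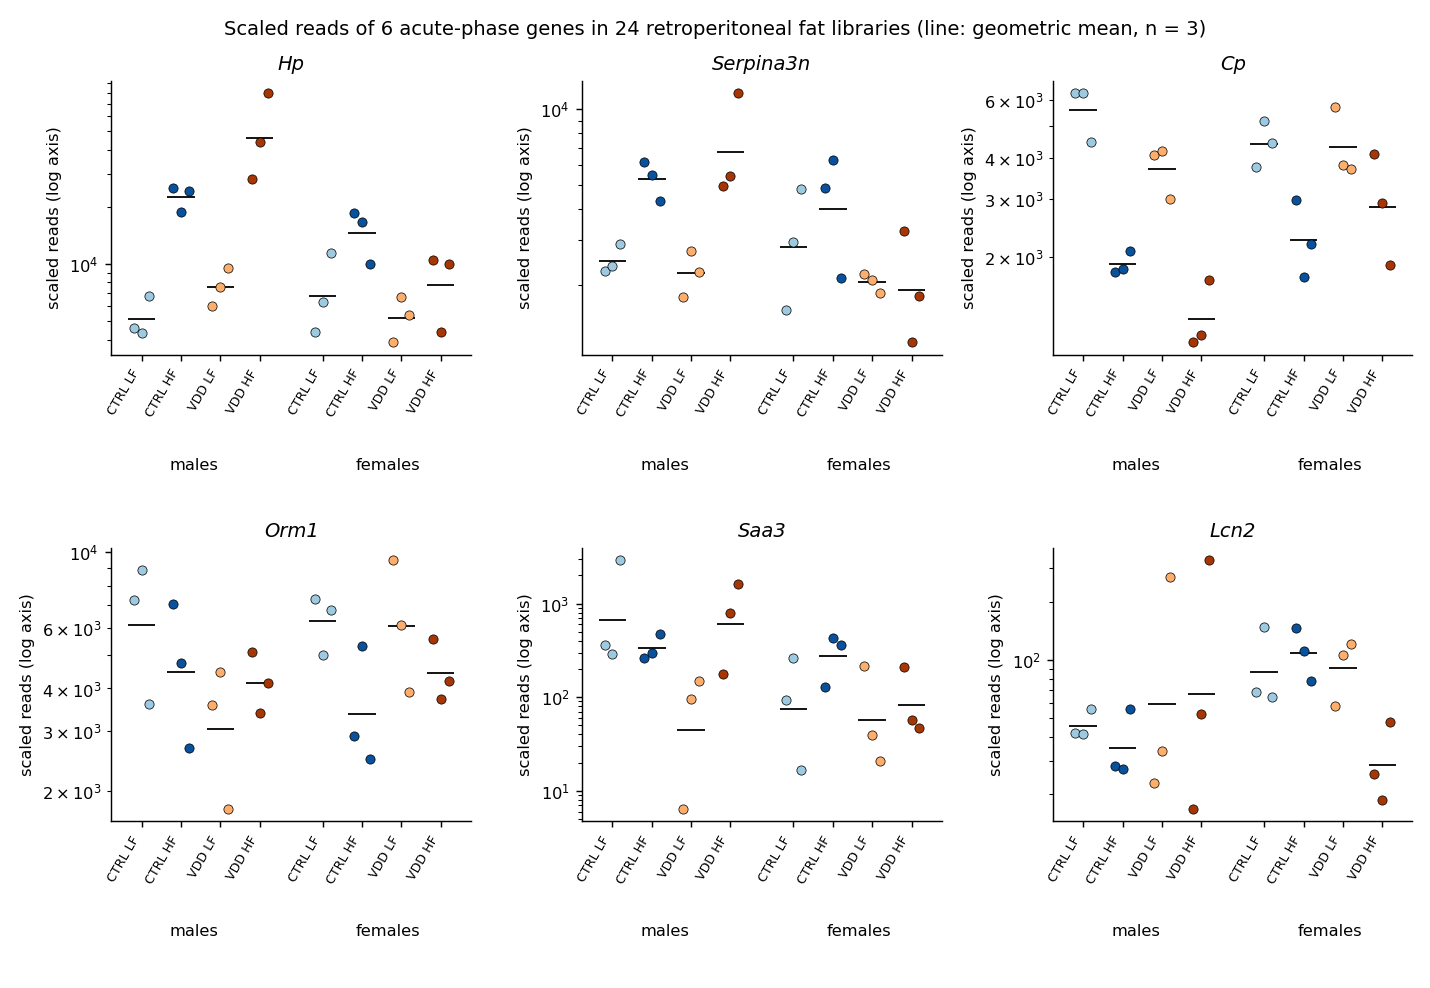
Scaled reads (log axis) of 6 acute-phase genes in 24 libraries, by sex, mother's diet and offspring diet, with 1 point per mouse and a line at the geometric mean of 3 mice. In males Hp and Serpina3n lie higher and Cp lower in every HF mouse than in every LF mouse, while Saa3 ranges from 6.41 to 2911 scaled reads.

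These 3 calls remained when any of the 12 males was left out. They also remained with limma-voom, with scaling by library totals, with a pseudocount of 10, under both other filters on low genes, and with a score of skeletal muscle genes or the word renal as a term in the fit. They were lost when the 4 male libraries with renal in the column name were left out together, at adjusted p = 0.0291 for Hp, 0.0387 for Serpina3n and 0.023 for Cp, with log2 fold changes of 2.33, 1.53 and -1.44, and 27 of 16189 genes were then called. Scaling by library totals shifted the median of all genes by 0.22 log2 units towards HF and changed the split of called genes from 699 higher and 471 lower to 1290 higher and 230 lower, but kept the direction of the 3 genes.

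Within the offspring of CTRL mothers, no acute-phase gene passed the threshold of 0.01, at which 0.0578% of 15583 genes were called. The log2 fold changes were 2.13 for Hp (SE 0.25, adjusted p = 0.0104), 1.06 for Serpina3n (SE 0.20, adjusted p = 0.0394) and -1.56 for Cp (SE 0.20, adjusted p = 0.0124). Within the offspring of VDD mothers, 0.0752% of 15965 genes were called and none of the 6. There the values were 2.60 for Hp (SE 0.41, adjusted p = 0.0274), 1.61 for Serpina3n (SE 0.35, adjusted p = 0.0547) and -1.51 for Cp (SE 0.23, adjusted p = 0.0243). At an adjusted p under 0.05, Hp, Serpina3n and Cp were called in CTRL males beside 1.17% of all genes, and Hp and Cp in VDD males beside 5.27%. Of all genes, 0.0128% were called higher and 0.0449% lower in CTRL males, and 0.0313% higher and 0.0438% lower in VDD males. The differences between the VDD and the CTRL response were 0.47 for Hp (95% interval -0.61 to 1.54), 0.53 for Serpina3n (-0.38 to 1.45) and 0.032 for Cp (-0.62 to 0.68), each with adjusted p = 1. At an unadjusted p under 0.05 stood 18.8% of all genes in CTRL males and 25.9% in VDD males, or 13.8% and 18.7% with the fold limit.

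Levels of other cells were read beside these 3 genes. Of 8 macrophage genes, 6 were higher in HF males at an unadjusted p under 0.05, which 34.9% of all genes reached in either direction, and Itgax, an integrin of fat-resident inflammatory macrophages, rose by 2.52 on the log2 scale (SE 0.39, adjusted p = 0.00182). The summed level of the 8 was 5979 to 23701 scaled reads in LF males and 11690 to 37675 in HF males. Its part in the change of Hp, Serpina3n and Cp was not tested, and in whole tissue a change in the number of cells cannot be told apart from a change in RNA per cell. Of 7 hepatocyte genes, Fgb, Apoh and Serpina1c had at most 16.3, 6.72 and 3.83 scaled reads in any library, Ttr at most 28.1 and Apoa1 at most 73.7. Cyp2e1, which fat also expresses, had 13921 to 149000 and fell by 1.73 in HF males (adjusted p = 0.000892), and the 3 of these genes that could be tested there were all lower at an unadjusted p under 0.05. Their part in the 3 changes was not tested. Albumin (Alb) was found in all 24, from 207.9 to 1049 scaled reads, with a log2 difference of -0.87 between HF and LF males (adjusted p = 0.0583). Leptin (Lep), the hormone that follows fat mass, rose by 3.27 (SE 0.37, adjusted p = 0.000388).

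**Figure D2:**
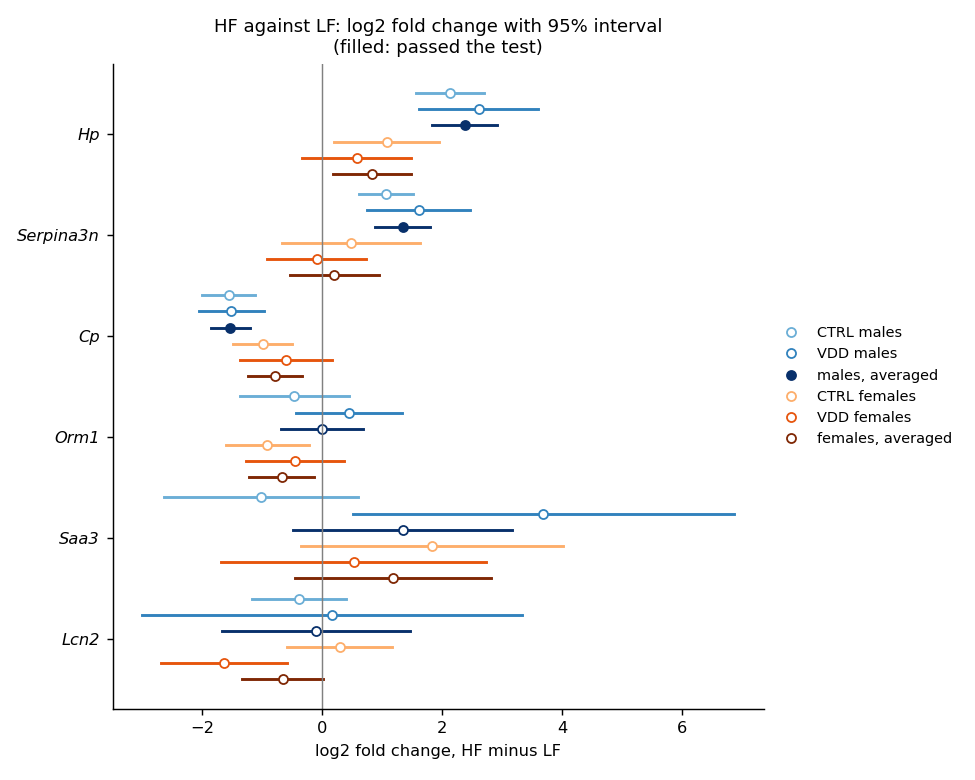
Log2 fold change of HF over LF (points) with its 95% interval (lines) for 6 acute-phase genes, within the offspring of CTRL and VDD mothers and averaged over both, in each sex. Filled points, which passed the test, are the male averages of Hp, Serpina3n and Cp at 2.37, 1.34 and -1.53.

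In females no acute-phase gene passed the test of the averaged HF response, and neither did any of the 17430 genes tested (0.0% called). At an unadjusted p under 0.05, 3687 genes (21.2%) were found, among them Hp, Orm1 and Cp. Limma-voom called 0 genes as well, while 76 genes were called without the VDD HF female 2083, none of them an acute-phase gene described here.

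Hp had 4374, 6344 and 11391 scaled reads in CTRL LF females and 18578, 16612 and 9960 in CTRL HF females. It had 3878, 6715 and 5388 in VDD LF females and 10487, 4396 and 10034 in VDD HF females. LF and HF females overlapped in both. The averaged log2 fold change was 0.83 (SE 0.30, adjusted p = 0.147).

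Cp had 3762, 5154 and 4418 scaled reads in CTRL LF females and 2988, 1746 and 2199 in CTRL HF females. These groups did not overlap, as was true of 35.4% of all genes, and the log2 difference of -0.99 (SE 0.21) had adjusted p = 0.038. In that comparison 0.0% of 16563 genes were called, 6.6% at an adjusted p under 0.05 and 28.8% at an unadjusted p under 0.05. At that unadjusted p, 5 of 8 macrophage, 4 of 5 mesothelial and 5 of 5 fibroblast and progenitor genes were higher in CTRL HF females and 4 of 5 brown adipocyte genes lower, with a median log2 difference of -4.45 for the last, and their part in the difference of Cp was not tested. VDD LF females had 5702, 3813 and 3707 and VDD HF females 4102, 2923 and 1893, with overlap. Averaged over both, the difference was -0.79 (SE 0.21, adjusted p = 0.0835).

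Serpina3n overlapped throughout in females, with 1581 to 4809 scaled reads in the 6 LF and 1181 to 6263 in the 6 HF mice. CTRL LF females had 1581, 2967 and 4809 and CTRL HF females 4828, 6263 and 2118, while VDD LF females had 2202, 2090 and 1850 and VDD HF females 3278, 1181 and 1805. Its averaged difference was 0.20 (SE 0.34, adjusted p = 0.766).

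The difference between the sexes in the HF response was tested for each gene, and no acute-phase gene passed, while 5 of 18399 genes (0.0272%) did, and 0 with limma-voom. The female response was lower than the male by 1.54 log2 units for Hp (95% interval of the difference -2.38 to -0.70, adjusted p = 0.247). It differed by -1.14 for Serpina3n (-2.02 to -0.26, adjusted p = 0.442) and by 0.74 for Cp (0.20 to 1.29, adjusted p = 0.416). Between the levels of the sexes, Hp alone of the 6 passed the test and was lower in females than in males by 0.83 log2 units (SE 0.20, adjusted p = 0.00648) over the 4 diet groups, beside 7.27% of 18399 genes called. That call was lost with scaling by library totals (adjusted p = 0.0103) and when any of 12 of the 24 mice was left out. Of the 8 macrophage genes, 7 were also lower in females at an unadjusted p under 0.05, beside 33.0% of all genes in either direction, and 3 were called lower (Cd163, Cd68 and Mrc1), beside 2.68%, and their part in the difference of Hp was not tested.

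Saa3 had the widest spread. CTRL LF males had 362, 287 and 2911 scaled reads and CTRL HF males 264, 295 and 477. VDD LF males had 6.41, 95.1 and 150 and VDD HF males 175, 794 and 1637. The CTRL groups overlapped, with mouse 2296 standing far above its group, whereas in the offspring of VDD mothers every HF male was above every LF male. Separation of those 2 groups, in either direction, was seen in 33.4% of all genes and in 24.5% for the CTRL males. The log2 fold change was -1.02 in CTRL males (SE 0.72, adjusted p = 0.477) and 3.69 in VDD males (SE 1.31, adjusted p = 0.146). Without mouse 2296 the first became 0.037, and without the VDD LF male 2078 the second became 2.35.

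The macrophage genes were read beside Saa3. Their summed level was 23701 scaled reads in mouse 2296, against 11827 and 13825 in the other CTRL LF males, and 37675 in mouse 2308, which had the most Saa3 of the HF males. The lowest sum in males, 5979, was in mouse 2078, which also had the least Saa3. The CTRL HF males 2131 and 2127 went against this order, with macrophage sums of 26371 and 21889 beside 477 and 264 scaled reads of Saa3. So did the VDD LF male 2310, with a sum of 17489 beside 150 scaled reads of Saa3. In VDD LF females the order was also reversed, with a sum of 4535 and 218 scaled reads of Saa3 in mouse 2303. Mouse 2312 of that group had 9148 and 21. In VDD HF females, mouse 2081 had both the highest sum, 22993, and the most Saa3. This relation was not tested in either sex.

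In females Saa3 had 94, 262 and 17 scaled reads in CTRL LF and 128, 434 and 365 in CTRL HF mice, and 218, 40 and 21 in VDD LF and 209, 57 and 46 in VDD HF mice. All of these groups overlapped. The averaged HF difference was 1.19 (SE 0.74, adjusted p = 0.38) in females and 1.34 (SE 0.83, adjusted p = 0.282) in males.

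Orm1 was high in every mouse. It had 1778 to 8904 scaled reads in the 6 LF males and 2677 to 7059 in the 6 HF males, with an averaged log2 difference of -0.0042 (95% interval -0.68 to 0.67, adjusted p = 0.994). In females its median was 6459 scaled reads under LF (3903 to 9493) and 3974 under HF, where the highest mouse had 5580, with a difference of -0.68 (SE 0.24, adjusted p = 0.151). Orm1 made up 88.8% to 96.7% of the scaled reads of the 3 Orm genes, Orm3 2.43% to 10.2% and Orm2 0.538% to 3.18%. Of its 50-base windows 20.4% also occur in Orm2 or Orm3, so reads of those stretches may have been lost and the shares are approximate.

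Lcn2 was low in fat. CTRL LF males had 42, 41 and 55 scaled reads and CTRL HF males 28, 27 and 55, whereas 1 mouse in each VDD group stood apart, with 23, 34 and 269 in VDD LF and 17, 53 and 331 in VDD HF males. Those mice were 2310 and 2308. In females it had 68, 149 and 64 scaled reads in CTRL LF, 147, 111 and 78 in CTRL HF, 58, 106 and 121 in VDD LF and 26, 19 and 47 in VDD HF mice. The VDD HF females lay below all other females. The log2 difference was -1.63 against VDD LF females (SE 0.44, adjusted p = 0.837) and -1.89 against CTRL HF females (SE 0.42, adjusted p = 0.147), so neither passed. These pairs of groups did not overlap in 11.7% and 23.1% of all genes. In the first, 0.0% of 15923 genes were called, 5.05% had an unadjusted p under 0.05, and 3.54% passed that together with the fold limit.

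Neutrophils store Lcn2 in their granules. Of 11 neutrophil genes, the granule genes Ngp, Camp and Mpo were at 0 in 18, 14 and 13 libraries, with at most 10.9, 5.46 and 2.40 scaled reads. Elane, also of the granules, was found in every library at 12.4 to 64.4 scaled reads, as were S100a8, S100a9 and Csf3r, the last at up to 140.9. The summed level of the 11 was 66.7 to 310.0 over the libraries, and its part in the level of Lcn2 was not tested. The summed level of 5 mesothelial genes (Msln, Upk3b, Lrrn4, Krt19, Wt1), which mark the lining of the abdominal cavity, was 6744 to 12862 scaled reads in CTRL HF females and 2210 to 5000 in VDD HF females. VDD LF females, with more Lcn2 than VDD HF females, had a mesothelial sum of 2333 to 5059, in the same range. In mouse 2310 it was 10197, against 243 and 906 in the other VDD LF males. Mouse 2310 also stood apart in skeletal muscle genes, with a sum of 823858 against 222.9 and 41662. Its sum of fibroblast and progenitor genes was 49219, against 10193 and 13787. These tissues cannot be told apart in that library, and their part in the level of Lcn2 was not tested.

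The mother's diet was compared within each offspring diet and sex. No acute-phase gene passed in any of the 4 comparisons, in which 0.0% of 15438 to 16480 genes were called. The paper, with DESeq2 and the same thresholds, lists differentially expressed genes in each of the 4. The 0.0% here therefore holds for limma on log2 values. The unadjusted p was under 0.05 for 1048 genes (6.79%) in males under LF, 850 (5.31%) under HF, 1933 of 16046 for females under LF and 2752 (16.7%) for females under HF, and limma-voom called 0 in each. With the fold limit added, these shares became 4.64%, 3.53%, 6.22% and 12.7%. Hp was higher in VDD HF than in CTRL HF males without overlap, as 10.5% of genes were higher or lower, with a log2 difference of 1.01 (95% interval 0.11 to 1.91, adjusted p = 0.94). Cp was lower without overlap in VDD males under both diets, with differences of -0.58 under LF (95% interval -1.11 to -0.06, adjusted p = 0.69) and -0.58 under HF (-1.01 to -0.15, adjusted p = 0.94). Saa3 was lower in VDD LF than in CTRL LF males without overlap, as 13.1% of genes were separated, with a difference of -3.81 (SE 1.30, adjusted p = 0.683), or -2.48 without mouse 2078. The summed level of 5 skeletal muscle genes was 1199 to 2987 scaled reads in CTRL HF males and 1417 to 293048 in VDD HF males. Under LF it was 330.5 to 54213 in CTRL and 222.9 to 823858 in VDD males. The part of muscle in these differences was not tested.

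**Figure D3:**
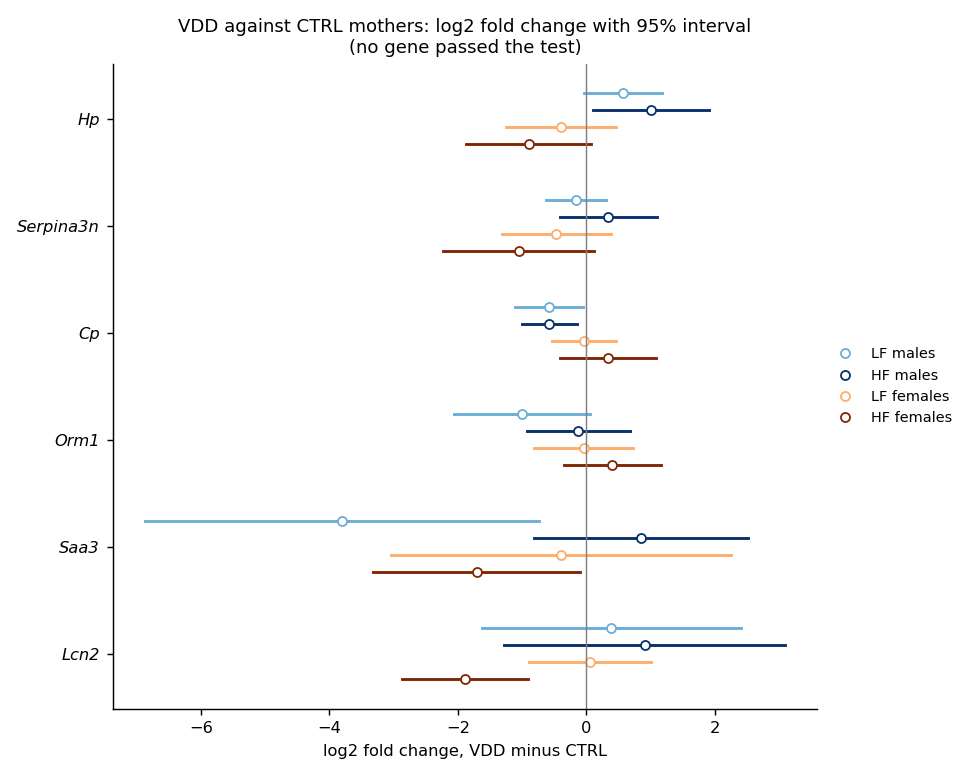
Log2 fold change of VDD over CTRL offspring (points) with its 95% interval (lines) for 6 acute-phase genes under LF and HF in each sex. No point passed the test, and the interval of Saa3 in LF males runs from -6.88 to -0.74.

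In females the same comparison under HF gave differences of -0.90 for Hp (SE 0.41, adjusted p = 0.33), -1.05 for Serpina3n (SE 0.50, adjusted p = 0.346) and -1.71 for Saa3 (SE 0.68, adjusted p = 0.274). Under LF the 6 differences ranged from -0.47 for Serpina3n to 0.059 for Lcn2. Libraries with high Cyp11a1 were 2 of the 3 CTRL HF females (3793 and 12775 scaled reads) and 1 of the 3 VDD HF females (10479), and the thermogenic gene Ucp1 reached 25479 in that VDD HF female and at most 214.8 in CTRL HF females. Their part in these differences was not tested.

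The rest of the acute-phase system was read from lists. Of 27 other acute-phase genes, 14 could be tested in males, where 1 rose and 1 fell under HF, beside 4.13% and 2.78% of all genes. Steap4, a metal reductase of fat cells, rose by 0.74 (SE 0.13, adjusted p = 0.00315), and the metallothionein gene Mt1 fell by 1.08 (SE 0.15, adjusted p = 0.00122). In females 0 of 16 passed, with C4b at 1.25 (adjusted p = 0.0905) and Orm2 at -1.55 (adjusted p = 0.0576). The pentraxins Crp and Apcs, which the liver makes, had at most 7 and 1 reads. Of 9 other genes of the Serpina3 cluster tested in males, 0 rose and 2 fell, beside the same shares of all genes, namely Serpina3k by 1.72 (SE 0.31, adjusted p = 0.00403) and Serpina3j by 3.49 (SE 0.66, adjusted p = 0.00513). Serpina3j had 7.27 to 397 scaled reads in LF males and at most 4.53 in HF males, so it was tested only through its LF libraries. In females Serpina3k had a difference of -1.88 (adjusted p = 0.0316) and Serpina3j of -2.01 (adjusted p = 0.0875). Of the 50-base windows of Serpina3n, 5.71% occur in related genes of the cluster.

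Among 9 tested cytokines and receptors that induce these genes, Il1rn, the antagonist of the interleukin 1 receptor, rose by 2.90 in HF males (SE 0.39, adjusted p = 0.000879). Its median was 5.87 scaled reads in LF males, against 42.3 in HF males, where the lowest mouse had 22.4. Il1rn was thus near the floor in LF males and tested only through its HF libraries. Il6ra, the receptor for interleukin 6, fell by 0.89 (SE 0.18, adjusted p = 0.00653). In that male fit, 4.13% of all genes were called higher and 2.78% lower. Il6 itself had at most 5 reads in any library. In females 0 of 9 passed, with Il6ra at -0.94 (adjusted p = 0.139) and Il1r1 at 0.24 (adjusted p = 0.148). Of 10 transcription factors and feedback genes, Nfkbia, the inhibitor of NF-kB, fell by 0.85 in HF males (SE 0.16, adjusted p = 0.00459), beside the same 2.78%. Cebpd had a difference of -1.40 (SE 0.37, adjusted p = 0.0215). In females 0 of 10 passed, with Bcl3 at 1.13 (adjusted p = 0.0515) and Cebpd at -1.17 (adjusted p = 0.0995). With scaling by library totals, Il6ra and Nfkbia in males no longer passed (adjusted p = 0.0322 and 0.0286).

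Of 6 genes that respond to glucocorticoids, 3 fell and 0 rose in HF males, beside 2.78% and 4.13% of all genes, with a median of -1.10 against -0.0029 over all genes. The 3 calls also held with scaling by library totals. The list was chosen with earlier results of these data known, so its count and median are a description and not independent support. Fkbp5, a chaperone of the glucocorticoid receptor, had 2608 to 4702 scaled reads in the 6 LF males and 568.5 to 863.6 in the 6 HF males, and fell by 2.28 (SE 0.16, adjusted p = 6.24e-05). The clock gene Per1 went from 1379 to 2077 scaled reads under LF to 570.3 to 1074 under HF, and fell by 1.33 (SE 0.14, adjusted p = 0.000237). Hsd11b1, the enzyme that regenerates active glucocorticoid inside fat cells, fell by 2.10 (SE 0.27, adjusted p = 0.000742). The receptor gene Nr3c1 had a difference of 0.047 (SE 0.13, adjusted p = 0.848). Within maternal groups Fkbp5 fell in CTRL males by 2.09 (adjusted p = 0.00404) and Per1 in VDD males by 1.72 (adjusted p = 0.00742). In females 0 of 6 passed, with a median of -0.97, Hsd11b1 at -1.46 (adjusted p = 0.0743) and Zbtb16 at -0.77 (adjusted p = 0.123).

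**Figure D4:**
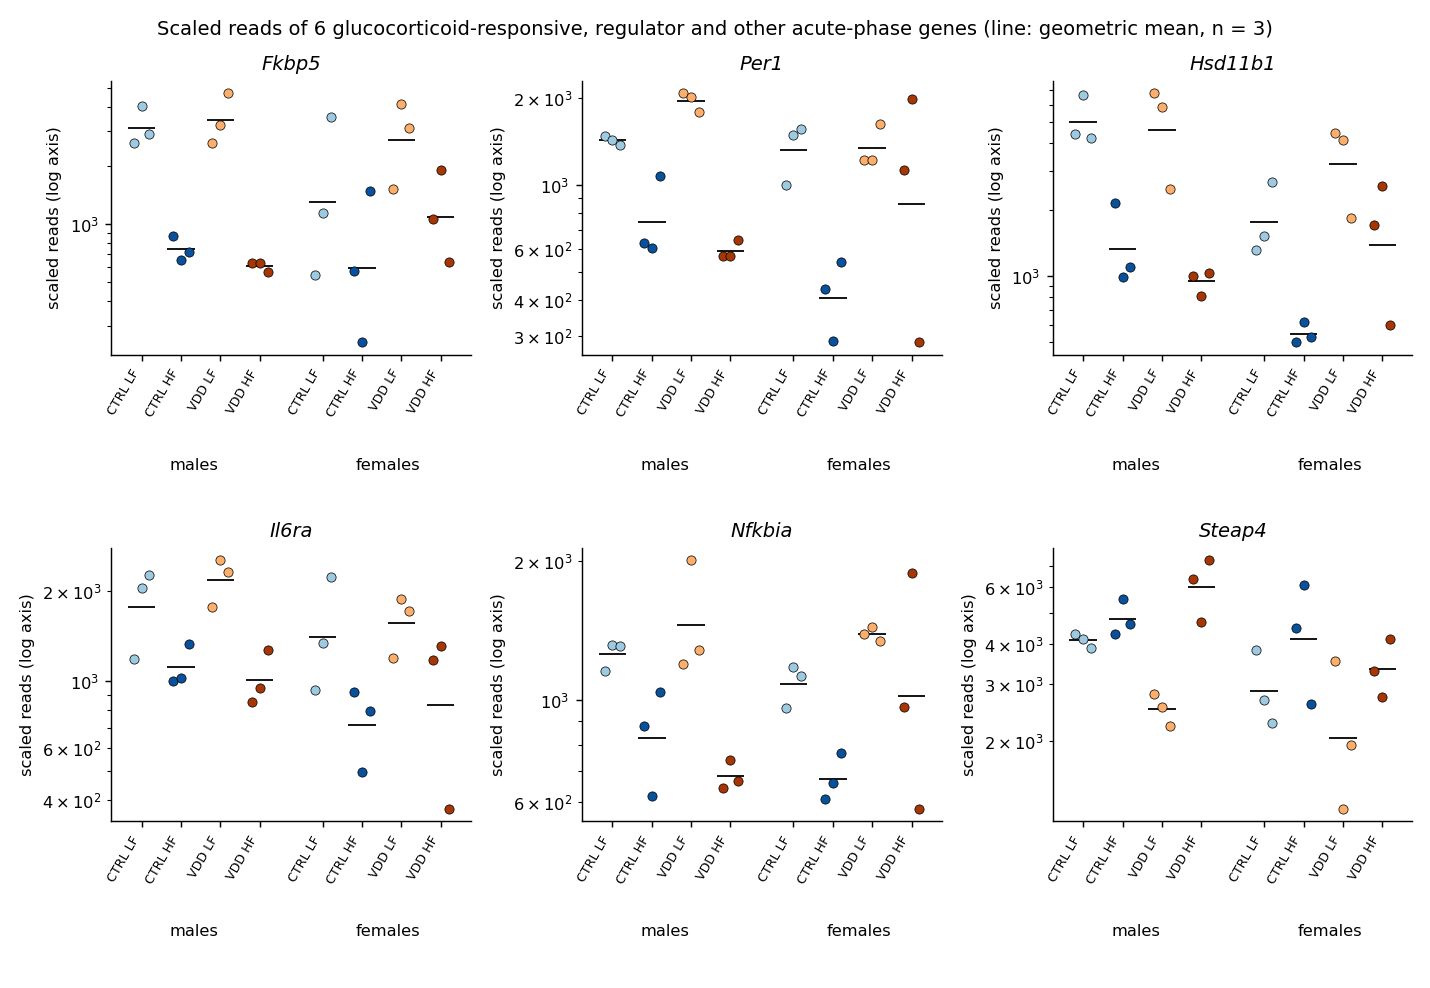
Scaled reads (log axis) of Fkbp5, Per1, Hsd11b1, Il6ra, Nfkbia and Steap4 in 24 libraries by group, with 1 point per mouse and a line at the geometric mean of 3 mice. Fkbp5 has 2608 to 4702 scaled reads in LF males and 568.5 to 863.6 in HF males.

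Of 12 tested receptors and partners of these proteins in males, Slc22a17, a receptor of lipocalin 2, rose by 0.78 under HF (SE 0.15, adjusted p = 0.00557). In that fit 4.13% of all genes were called higher and 2.78% lower. Heph, a copper-bearing relative of ceruloplasmin, had a difference of 0.37 (adjusted p = 0.0794). In females 0 of 13 passed, with Slc22a17 at 0.29 (adjusted p = 0.172) and Scarb1 at 0.24 (adjusted p = 0.353). Between the sexes, Cd163, the scavenger receptor for haptoglobin with hemoglobin, was lower in females by 0.91 (SE 0.23, adjusted p = 0.00807), and Slc22a17 was higher by 0.65 (SE 0.09, adjusted p = 8.61e-05). Of all genes, 4.59% were called higher and 2.68% lower in females. The complement gene Cfb was lower in females by 1.24 (adjusted p = 0.00663). Ttr and Serpina3j were higher by 1.98 (adjusted p = 0.00293) and 1.95 (adjusted p = 0.0046). Ttr had 10 or more scaled reads in 4 libraries, 0 in 8 and at most 7.25 in males. It was thus near the floor and tested only through its female libraries.

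The genes whose log2 scaled reads followed each member most closely over the 24 libraries were named as a description, since the libraries share diets, sex and admixed tissue. For Hp they were Gm43069 (Pearson r 0.902), the assembled locus XLOC_051836 (0.892) and Atp1a4 (0.866). For Cp they were Klb (0.899), the co-receptor of fibroblast growth factor 21, Unc93a2 (0.893) and Acot4 (0.882). For Serpina3n they included Adamts5 (0.845), a protease, and Sparc (0.839), a protein of the extracellular matrix. Orm1 was followed by Ctsd (0.887), Rab3d (0.836) and Orm2 (0.827), and Saa3 by Sptlc2 (0.815), Clec4e (0.812), a receptor of macrophages, and Tbc1d14 (0.795). Lcn2 was followed by Ror1 (0.858), Wt1os (0.851), which is the antisense gene of the mesothelial marker Wt1, and the assembled locus XLOC_002576 (0.848).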

How the data were processed

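Polyadenylated RNA of 24 fat pads was sequenced in pairs of reads with the TruSeq Stranded mRNA kit. Per the labels and methods, the authors used Sickle for trimming, aligned reads to mm10 with STAR 2.7.0d keeping uniquely placed reads, added transcripts with Cufflinks 2.2.1, counted with featureCounts 1.6.1 and compared groups with DESeq2 (versions per the submitters' processing notes). Their deposited tables, 1 per comparison, give 56899 entries in 6 libraries as log2(normalized reads + 1). Further deposited columns hold the authors' own fold changes and p-values and were not used. Unique placement lowers the counts of near-identical genes. Columns were matched to groups by the group words in their names.

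Whole reads were recovered from the log2 values (100.0% whole within 0.02), and 4 duplicated entries whose names look like dates were dropped. The 8 pairwise comparisons used the deposited log2 values. Averages, interactions and sex differences used reads scaled over 24 libraries by the median of ratios, as did every level. The fits used limma 3.58.1 (lmFit, eBayes with trend) in R 4.3.3, with a pseudocount of 1, a minimum of 10 normalized reads in 3 libraries, and calls at adjusted p under 0.01 with a fold above 1.5 or below 0.66. Fold changes are on the log2(value + 1) scale and understate those of low genes. Calling was tested on simulated data. Intervals are 95% intervals of the fit.

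The members, lists and markers were chosen with earlier results of these data known. Named list genes are those called and, per list and sex, the 2 of smallest p in the averaged HF fit. The genes followed most closely are the 3 of highest Pearson r among 18399 genes, of which 1 is not reported here. Alternatives were limma-voom, library totals, a pseudocount of 10, other filters and thresholds, leaving out each mouse, 1 fit per sex, and, chosen after seeing the data, a muscle score, the word renal as a term, and leaving out the libraries so named. Plots were drawn with Python 3.11.15 and matplotlib 3.10.9.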

Additional observations from a re-analysis of the deposited data

Results flagged for a closer look

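Among the tests of whether the HF response differed between maternal diets or between the sexes, 5 gave an unadjusted p under 0.05, and none of these 5 passed after adjustment over all genes. The maternal by offspring diet interaction of Saa3 in males was 4.69 log2 units (unadjusted p = 0.0165, adjusted p = 1), beside 3.86% of genes at such a p, and was 3.35 to 5.59 when single mice were left out. That of Lcn2 in females was -1.95 (unadjusted p = 0.00908, adjusted p = 0.601), beside 7.76% of genes, and the VDD HF females, at 26, 19 and 47 scaled reads, lay below all other females. The HF response differed between females and males by -1.54 for Hp (unadjusted p = 0.0011, adjusted p = 0.247), by -1.14 for Serpina3n (unadjusted p = 0.0141, adjusted p = 0.442) and by 0.74 for Cp (unadjusted p = 0.0104, adjusted p = 0.416), in a fit in which 1642 of 18399 genes had an unadjusted p under 0.05. With 3 mice in a group, no group was tested for outlying mice.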

How the results depend on the processing

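No paired analysis was possible because the columns carry mouse numbers and not the replicate numbers of the labels. The count of acute-phase genes called in CTRL LF vs. CTRL HF males, 0 as reported, was 1 with a pseudocount of 10, 2 with no filter, 1 with the filter in every library, and 3 at an adjusted or an unadjusted p under 0.05. Of all genes, 1.17% and 13.8% were called at these thresholds with the fold limit. In VDD LF vs. VDD HF males it was 3 with 1 fit over the 12 libraries of the sex, 2 at an adjusted and 4 at an unadjusted p under 0.05. The last thresholds called 5.27% and 18.7% of all genes. For the pseudocount, the filters and the fit over 12 libraries the share of all genes is not given. Those counts therefore cannot be read as particular to the acute-phase genes. In CTRL LF vs. CTRL HF females it was 1 at an adjusted and 3 at an unadjusted p under 0.05. Of all genes, 6.6% and 17.9% were called there at these thresholds with the fold limit. At an unadjusted p under 0.05 with the fold limit it was 1 in CTRL LF vs. VDD LF males, 1 in CTRL HF vs. VDD HF males, 1 in VDD LF vs. VDD HF females, 2 in CTRL HF vs. VDD HF females, 3 for the averaged HF response in females, 1 for each interaction, 3 for the sex difference of the HF response and 2 for females against males. By that rule the share of all genes was 10.2% for the averaged HF response in females and 5.42% for its difference between the sexes. The share was 15.5% for females against males, and for the interactions it was 3.44% in males and 6.43% in females. The count of acute-phase genes for the averaged HF response in males stayed at 3 except without the libraries named renal, where it was 0, with fewer samples. Females against males went from 1 to 0 with library totals. When single mice were left out, the counts ranged from 3 to 3 for the averaged HF response in males, from 0 to 1 for females against males, and from 0 to 0 for the other 12 comparisons. Over all genes the count in the averaged male fit, 1170 as reported, ranged from 591 to 1923 when single mice were left out. In VDD HF against VDD LF males, 12 as reported, it was 264 without mouse 2310 and 0 with limma-voom, and in the sex difference, 5 as reported, it ranged from 1 to 7 over single mice left out and was 0 with limma-voom. Directions turned in few uncalled results, and the cause was not tested. Lcn2 in CTRL LF vs. VDD LF females was -0.083 with library totals and ranged from -0.16 to 0.44 over single mice left out. Serpina3n in the averaged female response was -0.042 without the libraries named renal, and ranged from -0.0061 to 0.43 over single mice. Over single mice Serpina3n in VDD LF vs. VDD HF females ranged from -0.49 to 0.25, the Cp interaction in males from -0.16 to 0.20, Saa3 in CTRL LF vs. CTRL HF males from -1.63 to 0.037 and Saa3 in VDD LF vs. VDD HF females from -0.19 to 1.48. Under the filter in every library Saa3 was left out of comparisons that hold mouse 2078. Low reads limit Saa1 and Saa2, for which no difference was detectable at this depth.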
